A study of Gallus gallus with 9 samples.

Results

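Anterior heart field (AHF) explants of chick splanchnic mesoderm that were cultured with BMP4 were compared with explants cultured without it, over 3, 12 and 24 h together. The comparison takes the 8 cultured arrays of the 9 in the series. They are 4 arrays of explants given human recombinant BMP4 at 200 ng/ml, at 3 h, 12 h (A and B) and 24 h after plating, and 4 arrays of untreated explants at the same times. The untreated array at 0 h was left out. The labels name no strain or genotype for any group. All cultured explants, untreated ones included, were grown on a collagen drop in medium with fetal calf serum and chick embryo extract. A dissected explant holds every cell type of the piece, and in bulk RNA fewer cells of a type and less RNA per cell cannot be told apart.

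Bone morphogenetic proteins are secreted ligands that bind paired serine/threonine kinase receptors and act through SMAD transcription factors, which switch on both target genes and inhibitors of the pathway itself. Fibroblast growth factors act through receptor tyrosine kinases and ERK and likewise switch on their own inhibitors. The anterior heart field lies beside the forming heart and adds muscle to its outflow tract and right ventricle, and BMP is known there as a signal for heart muscle formation and FGF as a signal that keeps progenitors dividing. The title of the series frames the question as how BMP, by way of FGF signaling, bears on heart muscle differentiation of these progenitors.

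Each array gives 1 signal per probe set, on a linear scale. Signals of a gene are given in the order 3 h, 12 h A, 12 h B and 24 h throughout. A log2 difference is BMP4 minus untreated on log2(signal + 27.79), with its standard error (SE) after ±, from a limma fit with time as a block. A gene was called at a Benjamini-Hochberg adjusted p under 0.05 over the 28329 probe sets tested, and where several probe sets name 1 gene, the one with the highest mean log2 signal stands for it. Whether A and B came from separate pools of explants is not in the labels. The p-values therefore reflect the spread among these arrays, which may be technical, and the number of arrays limits the precision. As the fit takes 1 BMP4 effect over the 3 times, that spread also holds any change of the effect between times. A gene whose BMP4 effect varies with time can miss the threshold for that reason.

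Of 8 AHF and pharyngeal markers 7 were named on the array. TBX1, FOXC2 and EYA1 were not above the 40th percentile of signal on every array. The other 4, ISL1, TCF21, HAND2 and FGF8, stood above it on all 8 arrays. The same held for 6 of 7 cardiomyocyte markers, 4 of 5 endothelial markers, 3 of 5 pharyngeal endoderm markers, 3 of 5 surface ectoderm markers, 2 of 3 neural crest markers and none of 4 skeletal muscle markers. Summed cardiomyocyte marker signal was 25815 to 104005 with BMP4 and 18034 to 56158 untreated. Summed neural marker signal was 470.1 to 1539 with BMP4 and 1438 to 2206 untreated. Taken over all times, the ranges of both sums overlapped between the arms. Within each time, however, the cardiomyocyte sum was higher and the neural sum lower on the BMP4 array than on its untreated partner. Among the neural markers, PAX6 alone ran from 6.9 to 845 with BMP4 and from 668 to 1451 untreated. The sums for endothelium (1722 to 4899 with BMP4, 1748 to 5352 untreated), surface ectoderm (7878 to 15632 with BMP4, 7041 to 11135 untreated) and neural crest (405.1 to 2139 with BMP4, 610.2 to 2960.0 untreated) overlapped between the arms over all times. Against the untreated partner of its time, the surface ectoderm sum was higher on every BMP4 array. The endothelial and neural crest sums went both ways. The 3′ to 5′ signal ratio of ACTB, a sign of RNA integrity, was higher with BMP4 at each time (4.96, 5.50, 4.26 and 5.67 with BMP4, against 4.51, 5.44, 3.80 and 3.72 untreated). That of GAPDH was lower with BMP4 at 3 h and 12 h B and higher at the other points (1.84, 1.81, 1.40 and 1.63 with BMP4, against 2.22, 1.57, 1.54 and 1.32 untreated). The part of these marker sums and ratios in the results below was not tested.

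BMP4-treated and untreated explants differed in a small share of the genes. limma called 340 of 28329 probe sets (1.2%), 209 higher with BMP4 (0.738%) and 131 lower (0.462%). At an unadjusted p under 0.05 the count was 2959 probe sets, and 1556 of the 11721 named genes tested. The unadjusted counts of gene lists given below are to be set beside the figure for genes. Of 11721 named genes tested, 217 were called (1.85%), 134 of them higher (1.14%) and 83 lower (0.708%). In 49 of the higher and 52 of the lower genes the 2 arms did not overlap, against 236 (2.01%) and 246 (2.1%) of all genes tested. The called genes had median log2 differences of 1.06 among the higher and −1.03 among the lower, and 74 of the higher and 45 of the lower passed 1 in size, which is 2-fold on this scale. Of the 113 called genes with several probe sets 32 had probe sets of opposite sign, among them C1QL3, DLX1, FZD5, FZD8, GINS1, HDAC10, IL13RA2, LGALS3, NEFM, PNOC, RBL1, SAMD11, SFRP1, SMAD7 and UNC45B of the genes named here.

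The scale of these differences was close to that between replicates for most probe sets. The median size of the log2 difference between a BMP4 array and the untreated array of its time was 0.28 at 3 h, 0.306 and 0.296 at 12 h and 0.348 at 24 h. Between A and B it was 0.288 with BMP4 and 0.302 untreated. Nearly all of the calls rest on a variance model that follows the signal: without that trend limma called 4 probe sets, with 2806 at an unadjusted p under 0.05.

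Most called genes differed less at 3 h than later. The median log2 difference of the genes called higher was 0.66 at 3 h, 1.14 at 12 h and 1.17 at 24 h, and that of the genes called lower was −0.49, −1.12 and −1.41. At 3 h 90 of the 217 were within 0.5 of no difference, while 32 of the higher and 14 of the lower were already past 1. The greatest of the 3 differences was the one at 3 h in 26 genes, at 12 h in 69 and at 24 h in 122. The genes with the greatest difference at 3 h were nearly all higher ones, 22 against 4 lower. These per-time values come from the arrays that gave the calls, and the change between times was tested separately, as given further down.

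**Figure D1:**
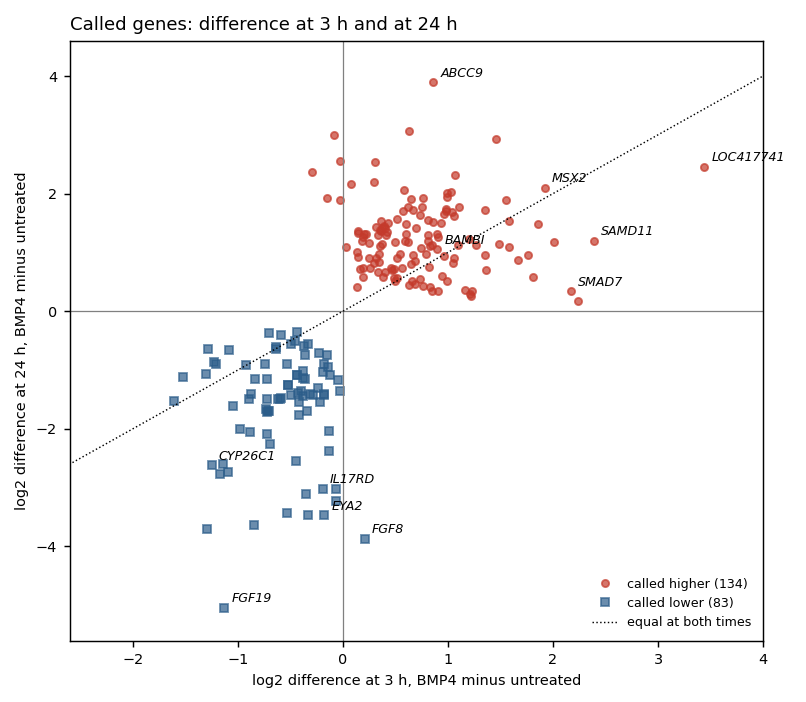
The log2 difference at 3 h (x axis) and at 24 h (y axis), BMP4 minus untreated, of the 217 called genes, 1 point a gene, with circles for the 134 called higher and squares for the 83 called lower. Points above the dotted line on the right, or below it on the left, differ more at 24 h. SMAD7 (2.17 at 3 h, 0.34 at 24 h) and SAMD11 lie on the early side and FGF19 and ABCC9 on the late side, while MSX2 lies near the line.

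Among the BMP pathway genes 4 members of the list of feedback genes and antagonists and 4 targets rose, and no ligand or receptor was called. The gene lists here and below were chosen with earlier results of these data known, so their counts only describe them. Over all genes tested 1.14% were called higher and 0.708% lower. In lists as short as these a count of 0 or 1 cannot be set apart from those shares. Of the 14 feedback genes and antagonists tested (of 17 listed) 4 were called higher and none lower. Their median was 0.18, against −0.01 over all genes. BAMBI, a decoy receptor that lacks the kinase, had signals of 16956, 28952, 27830.2 and 34014 with BMP4, against 9101, 11429.6, 12436 and 16418 untreated (log2 difference 1.11 ± 0.08, adjusted p = 1.28e-05). SMAD6, an inhibitory SMAD, had 18117, 19041, 20390.2 and 22269 with BMP4, against 12864, 13367, 13562 and 15045 untreated (log2 difference 0.54 ± 0.07, adjusted p = 0.00182). For both genes every BMP4 array lay above every untreated array, and the log2 differences were nearly the same at each time, 0.90 at 3 h, 1.25 at 12 h and 1.05 at 24 h for BAMBI and 0.49 at 3 h, 0.55 at 12 h and 0.56 at 24 h for SMAD6.

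SMAD7, the second inhibitory SMAD, had another time course. Its signals were 1259, 758, 751 and 442 with BMP4, against 258, 400.5, 311 and 342 untreated (log2 difference 1.15 ± 0.24, adjusted p = 0.0367). The arms did not overlap, but the highest BMP4 array was that at 3 h and the lowest that at 24 h. Its 3 probe sets differed in sign (−0.67 to 1.15), and its call was lost in each of the 4 fits without a 12 h array. BMPER, a secreted protein that binds BMPs, had 169, 542, 360.2 and 241 with BMP4, against 77.0, 111, 89.8 and 184 untreated (log2 difference 1.25 ± 0.27, adjusted p = 0.0445), with the 24 h BMP4 array near its untreated counterpart, and its call was lost in the same 4 fits. The antagonist NOG was not called (log2 difference 0.64 ± 0.28, adjusted p = 0.427), nor were CHRD (0.05), FST (−0.39) or SOSTDC1 (−0.92).

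Of 17 BMP target genes tested (of 21 listed) 4 were called higher and none lower, with a median of 0.33. Signals of 3 of these 4 follow. MSX2, a homeobox gene switched on by BMP in many tissues, had signals of 8980.2, 11966, 13192 and 13266 with BMP4, against 2348, 3648, 3944 and 3067 untreated, 3.65-fold higher with BMP4. ID4, of the inhibitor of differentiation family that binds and blocks helix-loop-helix factors, had 8526, 8348, 8639 and 7798 with BMP4, against 5262, 5617, 6020.0 and 5604 untreated (log2 difference 0.56 ± 0.09, adjusted p = 0.00584). DLX5, a distal-less homeobox gene of the arches and skeleton, had 13328, 13624, 15054 and 14022 with BMP4, against 5679, 7566, 8832 and 11109.9 untreated (log2 difference 0.79 ± 0.12, adjusted p = 0.00558). Each of the 3 was higher on all 4 BMP4 arrays than on any untreated array. In DLX5 the untreated arrays climbed with time, and the differences were 1.23 at 3 h, 0.81 at 12 h and 0.34 at 24 h.

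The best known members of the target list did not pass the test. ID1 had 24142, 15709.7, 20219 and 12753 with BMP4, against 11949, 14342, 17927 and 12727 untreated (log2 difference 0.33 ± 0.14, adjusted p = 0.436), with the 3 h BMP4 array far above its untreated partner and the 24 h arrays level. MSX1 had 4357, 3847, 5558 and 3186 with BMP4, against 1992, 2653, 2844 and 3523 untreated (log2 difference 0.62 ± 0.18, adjusted p = 0.152). ID2 was above all untreated arrays on all 4 BMP4 arrays, with a difference of 0.14 ± 0.07 (adjusted p = 0.501). That is the lowest of its 4 probe sets, which ran from 0.14 to 0.84. ID3 differed by 0.39 ± 0.11 (adjusted p = 0.124). HAND1 stood at 119 and 152 on the BMP4 arrays at 12 h and between 12.0 and 24.4 on all the others (log2 difference 1.09 ± 0.37, adjusted p = 0.256). None of the 15 BMP ligands, receptors and SMADs tested was called by limma, while 5 were higher and 3 lower at an unadjusted p under 0.05. Over all 11721 genes tested 792 were higher and 764 lower at that level. The explants' own BMP4 transcript differed by −0.93 ± 0.29 (adjusted p = 0.192) and BMPR1A, a type I receptor, by 0.10 ± 0.24.

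Transcripts of 4 FGF ligands fell. Of 13 ligands tested (of 17 listed) 4 were called lower and none higher, with a median of −0.71. FGF19 had signals of 1787, 357, 216 and 73.5 with BMP4, against 3947, 2344, 1866 and 3308 untreated, 7.66-fold lower with BMP4 (log2 difference −2.94 ± 0.42, adjusted p = 0.00385). FGF3 had 392, 101, 56.1 and 61.2 with BMP4, against 1002, 752, 774 and 1140.4 untreated, 6.57-fold lower (log2 difference −2.72 ± 0.31, adjusted p = 0.00103). FGF18 had 1166, 381, 369 and 127 with BMP4, against 1478, 1737, 1431 and 1676 untreated (log2 difference −1.94 ± 0.34, adjusted p = 0.0125). In these 3 genes all BMP4 arrays lay below all untreated arrays, and among the BMP4 arrays that at 3 h was the highest in each, while the untreated arrays at 3 h and 24 h were close.

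FGF8, a ligand of the pharyngeal arches and the outflow tract, stood apart at 3 h. It had 1895, 343, 415 and 126 with BMP4, against 1635, 2155, 1865 and 2209 untreated (log2 difference −2.08 ± 0.43, adjusted p = 0.0323), so the 3 h BMP4 array was above its untreated partner and the later 3 were far below. Its call was lost in each of the 4 fits without a 12 h array. FGF10, a ligand that marks the anterior heart field in the mouse, had low signals, 52.4, 18.7, 73.2 and 13.3 with BMP4, against 13.7, 68.5, 101 and 188 untreated (log2 difference −0.71 ± 0.44, adjusted p = 0.642). Its differences were 0.95 at 3 h, −0.70 at 12 h and −2.39 at 24 h. The other ligands with the lowest differences were FGF1 (−0.85) and FGF23 (−0.85), neither called. FGF3 and FGF19 have FGF4 as the 1 gene between them in the RefSeq gene order of assembly GRCg7b, and FGF4 itself was dim and not called (−0.21 ± 0.36, adjusted p = 0.917).

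Response genes of the FGF and ERK pathway fell as well. Of 20 feedback genes and targets tested (of 23 listed) 6 were called lower and none higher, with a median of −0.34, and 17 of the 20 were below 0. SPRY1, a sprouty inhibitor of receptor tyrosine kinase signaling, had 185, 166, 126 and 85.0 with BMP4, against 363, 427, 351 and 439 untreated (log2 difference −1.37 ± 0.22, adjusted p = 0.00844). IL17RD, a membrane inhibitor of FGF signaling, had 1097, 596, 443 and 182 with BMP4, against 1257, 1192, 1489.6 and 1674 untreated (log2 difference −1.47 ± 0.32, adjusted p = 0.0424). DUSP6, a phosphatase of ERK, had 1088, 955, 743 and 965 with BMP4, against 1281, 1847, 1726 and 1599 untreated (log2 difference −0.77 ± 0.16, adjusted p = 0.0403). Every BMP4 array lay below every untreated array in the 3 genes, and IL17RD and SPRY1 were lowest at 24 h with BMP4.

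The MAP kinase phosphatases DUSP4 (−1.14 ± 0.20) and DUSP5 (−0.89 ± 0.17) were called lower too. ETV4, an ETS transcription factor downstream of FGF, had 1387, 367, 438 and 333 with BMP4, against 1784, 841, 932 and 774 untreated (log2 difference −0.92 ± 0.17, adjusted p = 0.0201), with a fall over time in both arms. SPRY2 was below all untreated arrays on all 4 BMP4 arrays without passing the test (log2 difference −0.57 ± 0.18, adjusted p = 0.202), and ETV5 differed by −0.32 ± 0.17 (adjusted p = 0.575). Without any 1 of the 12 h arrays, 1 to 2 of the 6 calls in this list were made and 2 to 3 of the 4 among the ligands. Without the 24 h pair it was 1 and 3.

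Of 15 FGF receptors and co-receptors tested (of 18 listed) 2 were called higher. FGFR3 had 568, 2298, 2153 and 3729 with BMP4, against 581, 617, 674 and 979 untreated (log2 difference 1.34 ± 0.25, adjusted p = 0.0218), level at 3 h and higher with BMP4 from 12 h on. Its 4 probe sets ran from 0.31 to 1.34, and its call was lost without any 1 of the 12 h arrays. GPC3, a cell surface heparan sulfate proteoglycan that binds growth factors, had 2003, 4584, 5098 and 5196 with BMP4, against 959, 1368, 1529.6 and 1591 untreated (log2 difference 1.54 ± 0.14, adjusted p = 0.000165), with no overlap of the arms. FGFR1 differed by −0.13 ± 0.12 (adjusted p = 0.818).

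**Figure D2:**
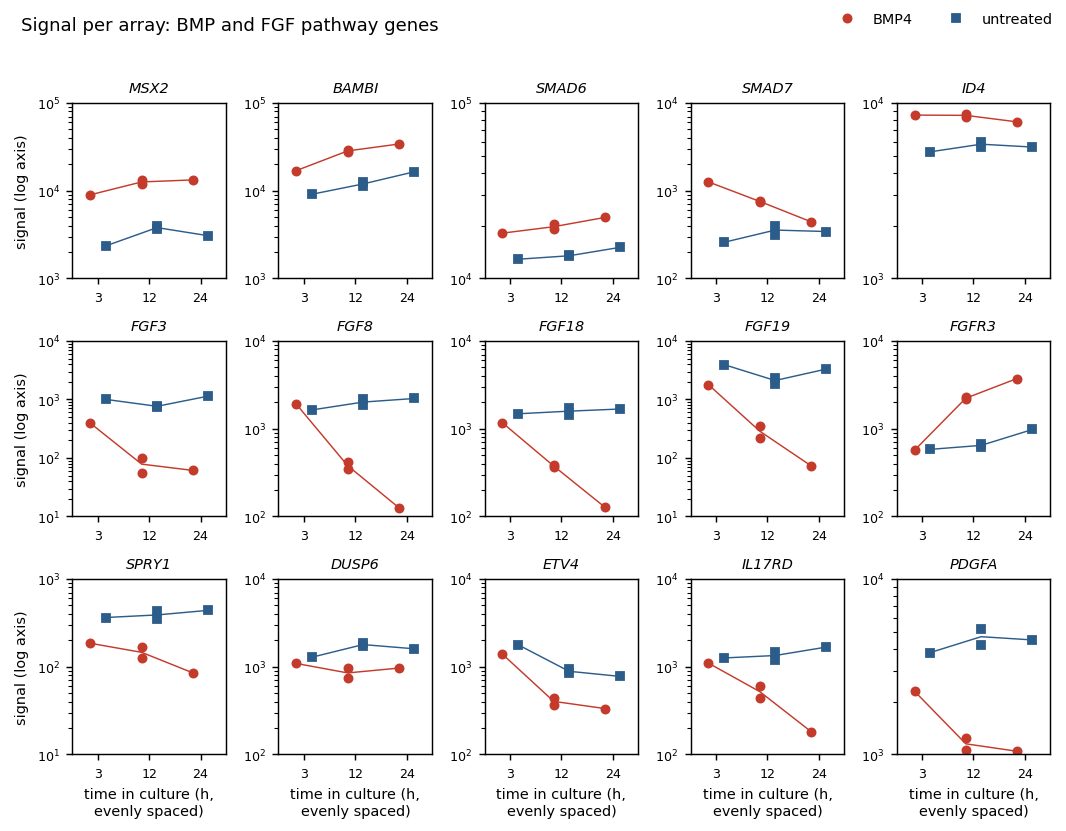
Signal of 14 BMP and FGF pathway genes and of PDGFA on each of the 8 arrays (log axis, range set per gene) against time in culture. Circles are BMP4 arrays and squares untreated arrays, with both arrays of 12 h shown and lines through their mean. MSX2, BAMBI, SMAD6 and ID4 are higher with BMP4 at every time, and FGF3, FGF18, FGF19 and SPRY1 are lower at every time.

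Ligands, receptors and enzymes of other signaling pathways were among the called genes in both directions. Of 47 Wnt genes tested 2 were called higher (4.3%) and 3 lower (6.4%), against 1.14% and 0.708% of all genes tested. RSPO3, a secreted enhancer of Wnt signaling, had 306, 251, 180.2 and 598 with BMP4, against 666, 1817, 1134 and 1879.7 untreated (log2 difference −1.97 ± 0.26, adjusted p = 0.00243). The Wnt receptor FZD8 (−1.14 ± 0.15) and the secreted Wnt inhibitor SFRP1 (−0.92 ± 0.18) were lower, while the ligand WNT3A (1.43 ± 0.20) and the receptor FZD5 (1.06 ± 0.20) were higher. RSPO3 and SFRP1 did not overlap between the arms. The probe sets of FZD8, SFRP1 and FZD5 differed in sign, and for SFRP1 and FZD5 the call was lost without any 1 of the 12 h arrays.

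CYP26C1, which breaks down retinoic acid, had signals of 3174, 2710.4, 2297 and 1352 with BMP4, against 7598, 8472, 7548 and 8465 untreated (log2 difference −1.80 ± 0.17, adjusted p = 0.000301). NR2F2, an orphan nuclear receptor that retinoic acid can induce, had 1980.4, 1878, 2325 and 1051 with BMP4, against 3300.2, 3583, 3678 and 3410.3 untreated (log2 difference −0.99 ± 0.16, adjusted p = 0.00672). Both were lower on all BMP4 arrays than on any untreated array, and they were the 2 called of 17 retinoic acid genes tested. HES5, a target of Notch, was lower by −1.81 ± 0.26 (adjusted p = 0.00449) without overlap and was the 1 gene called of 18 in the Notch list.

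Of 32 genes tested in the list of VEGF, PDGF and other growth factor signaling 3 were called lower (9.4%) and none higher, with a median of 0.14. Over all genes tested 0.708% were called lower. PDGFA, a platelet-derived growth factor, had 2291, 1238, 1062 and 1043 with BMP4, against 3801, 5176, 4198 and 4491 untreated (log2 difference −1.70 ± 0.20, adjusted p = 0.00113). VEGFD, a vascular and lymphatic growth factor, had 4624, 1083, 1242 and 416 with BMP4, against 6699, 4697, 4396 and 4745 untreated (log2 difference −1.96 ± 0.30, adjusted p = 0.006), and the receptor tyrosine kinase KIT had 628, 304, 343 and 335 with BMP4, against 642, 1121, 876 and 904 untreated (log2 difference −1.12 ± 0.23, adjusted p = 0.0362). All 3 were below their untreated partners at each time, VEGFD least at 3 h and KIT nearly level there. KIT lost its call without any 1 of the 12 h arrays.

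Guidance molecules were called in both directions. In the semaphorin, netrin, slit and plexin list 5.7% were called higher and 8.6% lower, against 1.14% and 0.708% of all genes tested. Among 35 semaphorin, netrin, slit and plexin genes tested SEMA6D (1.19 ± 0.24) and the netrin receptor UNC5B (0.55 ± 0.11) were higher, and SEMA3D (−0.71 ± 0.14), PLXNA2 (−0.66 ± 0.15) and PLXNC1 (−0.75 ± 0.16) lower. Without any 1 of the 12 h arrays 0 to 1 of the higher calls and 0 of the lower calls were made. Of 13 Eph and ephrin genes EPHA5 was lower, with 433, 289.6, 268 and 148 with BMP4, against 956, 783, 614 and 1141 untreated (log2 difference −1.57 ± 0.25, adjusted p = 0.00639), and EPHA1 higher (0.69 ± 0.14). In EPHA5 no BMP4 array reached the lowest untreated one, and EPHA1 lost its call in each of the 4 fits without a 12 h array. The Eph and ephrin calls were 7.7% of that list each way. None of the 16 TGF-beta and activin genes and none of the 9 hedgehog genes tested was called by limma, with 1 and 2 at an unadjusted p under 0.05. Counts of 0 in lists of this size cannot be set apart from the 1.85% called over all genes tested.

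Some regulators of heart muscle rose. Of 27 cardiac transcription factors and cofactors tested (of 30 listed) 5 were called higher and none lower, with a median of 0.24. GATA5, a zinc finger factor of heart and endoderm, had 11671, 14875, 15369 and 15842 with BMP4, against 6546, 8024, 9260.4 and 7304 untreated (log2 difference 0.89 ± 0.09, adjusted p = 0.000362). HAND2, a helix-loop-helix factor of the right ventricle and outflow tract, had 584, 827, 928 and 731 with BMP4, against 266, 588, 382 and 377 untreated (log2 difference 0.91 ± 0.17, adjusted p = 0.0225). MYOCD, the coactivator of serum response factor in heart and smooth muscle, had 223, 569, 340.2 and 497 with BMP4, against 146, 189, 209.9 and 150.3 untreated (log2 difference 1.04 ± 0.23, adjusted p = 0.0412). GATA5 and MYOCD did not overlap between the arms, and in HAND2 only the untreated 12 h A array, at 588, reached into the BMP4 range.

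SMYD1, a muscle histone methyltransferase, was higher by 1.19 ± 0.23 (adjusted p = 0.0216) and PROX1, a homeobox factor of heart muscle and lymphatic vessels, by 1.12 ± 0.22 (adjusted p = 0.0234). NKX2-5, an early marker of the heart fields, had 9211, 5403, 8681 and 5079 with BMP4, against 6136, 4049, 6233 and 4134 untreated and was not called (log2 difference 0.44 ± 0.16, adjusted p = 0.282), although each BMP4 array was above its untreated partner. GATA6 (0.46), TBX5 (0.33), TBX20 (0.09), GATA4 (−0.02) and MEF2C (−0.58) were not called, and the probe sets of the last 4 were dim. Without any 1 of the 12 h arrays 1 to 2 of the 5 calls were made, GATA5 in each of these fits.

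Progenitor regulators leaned lower, mainly at 12 h, with ISL1 called higher. Of 15 regulators of the heart field and pharyngeal mesoderm tested (of 25 listed) 1 was called higher and 2 lower. In this list 12 genes were below 0 and the median was −0.44. The medians by time were 0.02 at 3 h, −0.61 at 12 h and −0.18 at 24 h. ISL1, the LIM homeobox gene that marks the second heart field, had 11120.0, 10088, 9566 and 9639 with BMP4, against 6578, 7705, 6589 and 7154 untreated (log2 difference 0.53 ± 0.09, adjusted p = 0.013), with all BMP4 arrays above all untreated ones. EYA2, a transcriptional coactivator and phosphatase of placodes and muscle progenitors, had 1782, 785, 622 and 175 with BMP4, against 2023, 3171, 3071 and 2219 untreated (log2 difference −1.97 ± 0.35, adjusted p = 0.0139), and FOXC2, a forkhead factor of the outflow tract, had 465, 141, 139 and 43.6 with BMP4, against 595, 392, 386 and 204 untreated (log2 difference −1.17 ± 0.23, adjusted p = 0.0242). EYA2 was below all untreated arrays on all BMP4 arrays. FOXC2 lost its call in each of the 4 fits without a 12 h array, and EYA2 in 3 of them. TBX1 (−0.66 ± 0.24) and TCF21 (0.09 ± 0.18) were not called.

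Genes of the contractile apparatus rose, and no member of the 3 sarcomere lists was called lower. In the thick filament list 5 of 19 tested were called higher (median 0.60), in the thin filament list 4 of 19 (median 0.52) and in the Z-disc and costamere list 7 of 30 (median 0.52). The median differences at 3 h were −0.00, 0.03 and 0.26 in the 3 lists, and at 24 h 1.08, 0.70 and 1.04. MYH7B, a myosin heavy chain, had 224, 1134, 914 and 3421 with BMP4, against 95.4, 258, 349.9 and 825 untreated, 3.03-fold higher with BMP4. MYBPC3, cardiac myosin-binding protein C, had 70.0, 938, 531 and 6037 with BMP4, against 5.66, 282, 306 and 1595 untreated (log2 difference 1.46 ± 0.21, adjusted p = 0.00423). Its 3 probe sets ran from 0.40 to 1.46, and its call was lost with the mean of them. MYL2, the regulatory light chain of ventricular myosin, had 1002, 7200.4, 6475 and 19040.1 with BMP4, against 628, 2406, 3128 and 10838 untreated (log2 difference 1.02 ± 0.14, adjusted p = 0.00259). In all 3 both arms climbed steeply from 3 h to 24 h, each BMP4 array was above its untreated partner, and the late untreated arrays stood above the early BMP4 array, so the arms overlapped.

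In the thin filament TNNT2, cardiac troponin T, had 11172, 16198, 16991 and 28677 with BMP4, against 7021, 7190.4, 11758 and 14690.4 untreated (log2 difference 0.83 ± 0.12, adjusted p = 0.00508) and ACTC1, cardiac alpha-actin, had 3024, 10101, 9700.0 and 23995 with BMP4, against 2379, 3536, 5696 and 13532 untreated (log2 difference 0.86 ± 0.15, adjusted p = 0.015). Skeletal alpha-actin ACTA1 (0.78 ± 0.15) and the slow troponin I gene TNNI1 (0.77 ± 0.16) were higher as well. At the Z-disc ACTN2, sarcomeric alpha-actinin, had 152, 985, 588 and 4856 with BMP4, against 142, 255, 309 and 1054 untreated (log2 difference 1.24 ± 0.28, adjusted p = 0.0489), nearly level at 3 h and well above the untreated array at 24 h. CSRP3 (0.81 ± 0.14), FHL2 (0.77 ± 0.17), POPDC2 (1.29 ± 0.20), SMPX (1.30 ± 0.22), HSPB7 (1.33 ± 0.25) and TRIM55 (1.10 ± 0.17) were the other members called. So were the light chain MYL4 (0.83 ± 0.16), the myosin chaperone UNC45B (1.26 ± 0.21) and, outside these lists, the actin-binding Z-disc protein NEXN (1.40 ± 0.22).

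Some of the best known sarcomere genes did not pass the test. MYH15, a ventricular myosin heavy chain of the chick, had 1182, 9888, 8952 and 22214 with BMP4, against 1651, 3560.4, 5154 and 11902 untreated (log2 difference 0.67 ± 0.22, adjusted p = 0.223), lower than untreated at 3 h and higher afterwards. MYH7 was dim (0.52 ± 0.37, adjusted p = 0.709). Without any 1 of the 12 h arrays 4 of the thick filament calls, 1 to 4 of the thin filament calls and 2 to 4 of the Z-disc calls were made. Without the 24 h pair it was 3, 1 and 2.

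Of 30 calcium handling and ion channel genes tested (of 48 listed) 2 were called higher and none lower, with a median of 0.10. That is 6.67% higher, against 1.14% of all genes tested. The 2 called genes encode the subunits of 1 channel. ABCC9, the sulfonylurea receptor SUR2, had 210.4, 1775, 1396 and 2537 with BMP4, against 104, 181, 182 and 145 untreated, 6.30-fold higher with BMP4 (log2 difference 2.65 ± 0.35, adjusted p = 0.00243). KCNJ8, the pore subunit Kir6.1 of the ATP-sensitive potassium channel, had 142, 350.0, 291 and 462 with BMP4, against 82.6, 85.8, 83.5 and 115 untreated (log2 difference 1.41 ± 0.23, adjusted p = 0.00924). Neither gene overlapped between the arms, the untreated arrays stayed within a narrow band in both, and their 2 probe sets ran one way (1.93 to 2.65 and 1.11 to 1.41). They are neighbours on chromosome 1 with no other protein-coding gene between them in the RefSeq order. ATP2A2, the calcium pump of the sarcoplasmic reticulum, differed by 0.56 ± 0.17 (adjusted p = 0.17), and the ryanodine receptor RYR2 (−0.22) and the natriuretic peptide NPPA (0.26) were dim and not called. None of 19 secreted heart factors and metabolic genes was called by limma, with 5 at an unadjusted p under 0.05.

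**Figure D3:**
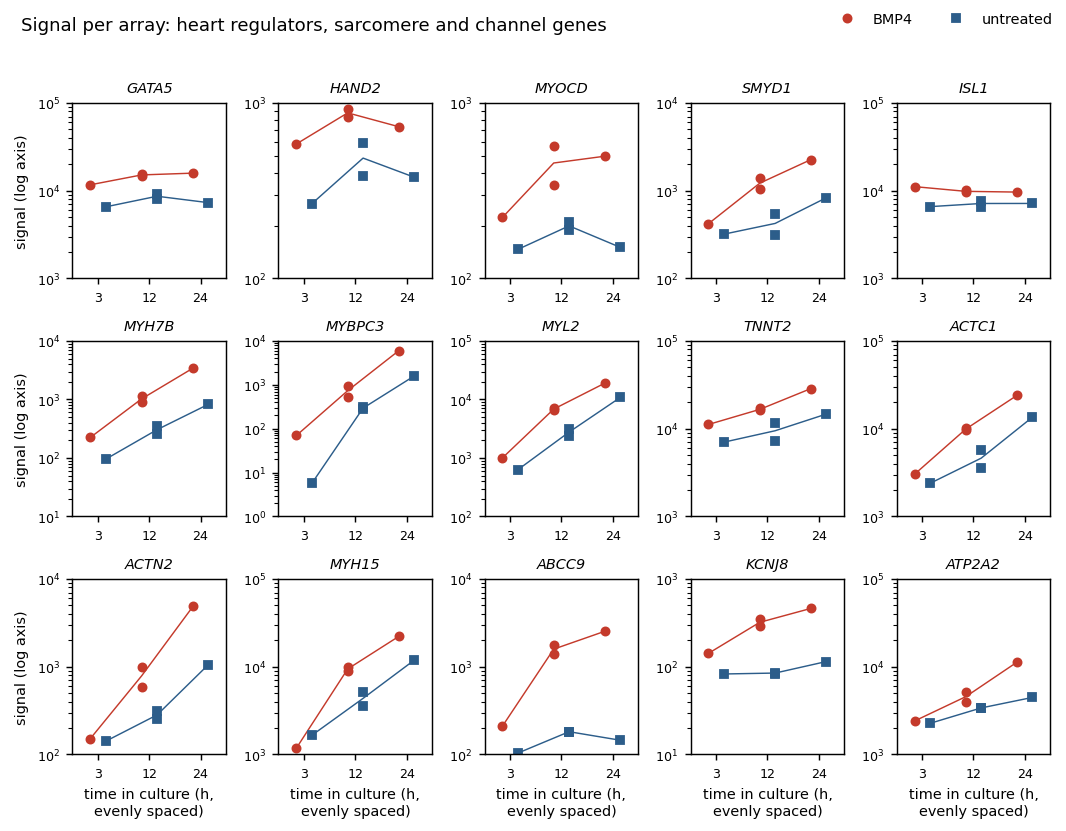
Signal of 15 heart regulators, sarcomere and channel genes on each of the 8 arrays (log axis, range set per gene) against time in culture, with circles for BMP4, squares for untreated and lines through the mean of both 12 h arrays. MYH7B, MYBPC3, MYL2, ACTC1 and ACTN2 climb in both arms, with BMP4 above untreated at each time. In ABCC9 and KCNJ8 the BMP4 arrays climb away from a nearly level untreated arm.

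**Figure D4:**
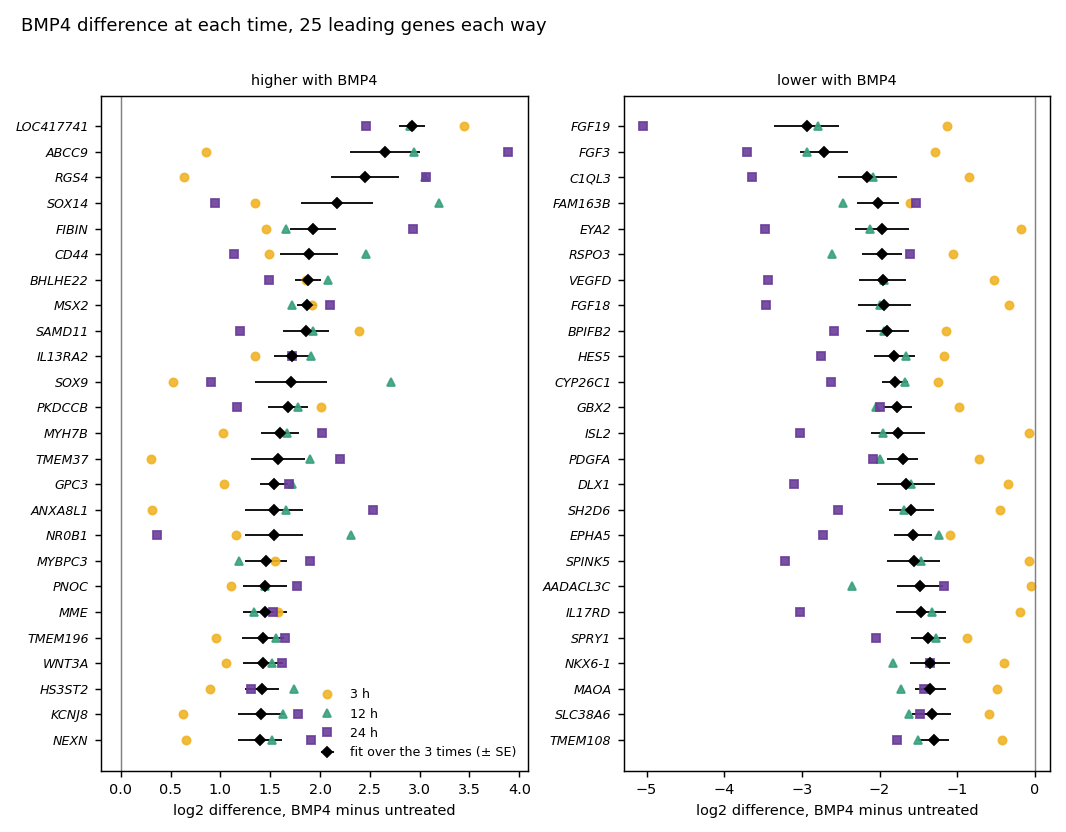
Log2 differences, BMP4 minus untreated, of the 25 genes highest (left) and 25 lowest (right) among those called, with 1 sign at all 3 times and a mean signal of at least 100 in the higher arm. Diamonds with bars are the fit over the 3 times ± SE, and circles, triangles and squares the differences at 3, 12 and 24 h. LOC417741 differs most at 3 h (3.44), ABCC9 and FGF19 at 24 h (3.89 and −5.04), and most lower genes are nearest to 0 at 3 h.

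Beyond these pathways the highest gene was LOC417741, a protein-coding gene without a name in RefSeq, with 6016, 17022, 16118 and 12573 with BMP4, against 529.8, 2215, 2185 and 2255 untreated, 7.59-fold higher with BMP4 (log2 difference 2.92 ± 0.13, adjusted p = 2.48e-07). Its neighbour HDAC10, a histone deacetylase chosen after its value was seen, was higher too (0.94 ± 0.15). The 3 probe sets of LOC417741 ran from 0.33 to 2.92. BHLHE22, a helix-loop-helix repressor, had 5558, 5057, 4494 and 4095 with BMP4, against 1513, 1029, 1193 and 1439 untreated (log2 difference 1.88 ± 0.13, adjusted p = 1.28e-05). PKDCCB, a secreted protein kinase gene, had 702, 726, 874 and 558 with BMP4, against 153, 172, 261 and 233 untreated (log2 difference 1.68 ± 0.20, adjusted p = 0.00157), while its paralog PKDCCA was lower, with 1873, 545, 542 and 278 with BMP4, against 2886, 831, 1092 and 827 untreated (log2 difference −0.92 ± 0.17, adjusted p = 0.0212). LOC417741, BHLHE22 and PKDCCB had no overlap between the arms and stood at 3.44, 1.86 and 2.01 at 3 h.

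Of 28 G protein and second messenger regulators tested 1 was called higher and 1 lower (3.57% each way), with a median of −0.16. Over all genes tested it was 1.14% and 0.708%, from which 1 call in such a list cannot be set apart. RGS4 had 208, 4051, 2334 and 8392 with BMP4, against 125, 318, 378 and 979 untreated (log2 difference 2.45 ± 0.34, adjusted p = 0.00327) and RGS2, next to it in the gene order, 1589.6, 427, 379 and 214 with BMP4, against 1941, 769, 941 and 624 untreated (log2 difference −0.94 ± 0.19, adjusted p = 0.0281). Within each time every BMP4 array was above its untreated partner in RGS4 and below it in RGS2. RGS2 lost its call in each of the 4 fits without a 12 h array. HS3ST2, which sulfates heparan sulfate, was higher by 1.42 ± 0.17 without overlap, and so was MME, the peptidase neprilysin, by 1.45 ± 0.22. PNOC, the precursor of the opioid-like peptide nociceptin, was higher by 1.45 ± 0.22, with probe sets from −0.04 to 1.45, and the enkephalin precursor PENK, chosen after its value was seen, by 1.29 ± 0.23. The remaining leading genes higher with BMP4 were FIBIN (1.93), SAMD11 (1.86), SOX14 (2.17), IL13RA2 (1.72), TMEM37 (1.58), ANXA8L1 (1.54), NR0B1 (1.54) and TMEM196 (1.43). The remaining leading genes lower with BMP4 were C1QL3 (−2.16), FAM163B (−2.02), BPIFB2 (−1.90), DLX1 (−1.66), SH2D6 (−1.59), SPINK5 (−1.56), AADACL3C (−1.48), MAOA (−1.35), SLC38A6 (−1.33) and TMEM108 (−1.30). Among these remaining genes NR0B1, DLX1, SH2D6, SPINK5 and AADACL3C lost their call in each of the 4 fits without a 12 h array. ANXA8L1 and SLC38A6 were called in 1 of these fits, SOX14 and C1QL3 in 2 and TMEM37 in 3. For SOX14, DLX1, BPIFB2 and FAM163B the mean of the lower arm was under the 27.79 added. The size of their difference therefore depends on that amount.

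Mesenchymal and cushion genes were among those that rose. Of 32 genes of cartilage, endocardial cushion and valve tested 5 were called higher and 1 lower, with a median of 0.01. PRRX1, a paired homeobox gene of limb and arch mesenchyme, had 6199.6, 7279, 8143 and 6934 with BMP4, against 2878, 3630.1, 4505 and 3155 untreated (log2 difference 1.02 ± 0.10, adjusted p = 0.000552), without overlap and with its 3 probe sets close (0.95 to 1.17). CD44, a hyaluronan receptor, had 85.3, 238, 301 and 358 with BMP4, against 12.4, 13.8, 41.5 and 147 untreated (log2 difference 1.89 ± 0.29, adjusted p = 0.00584), and SOX9, the cartilage and valve factor, 224, 240.1, 502 and 456 with BMP4, against 148, 29.7, 29.6 and 229.9 untreated (log2 difference 1.71 ± 0.36, adjusted p = 0.0378). The 4 probe sets of CD44 ran from 0.28 to 1.89, and its call was lost with the mean of them. SOX9 lost its call without any 1 of the 12 h arrays, and its untreated 12 h arrays were both far below those at 3 and 24 h. FIBIN and the matrix protein MATN2 (1.30 ± 0.23) were higher, and the tendon factor SCX lower (−0.92 ± 0.19). Of 51 collagen and matrix genes and 28 matrix proteases and inhibitors limma called none, with 19 and 7 at an unadjusted p under 0.05. Of the 19 collagen and matrix genes 12 were higher and 7 lower. Over all 11721 genes tested 1556 reached that level, a smaller share than among the collagen and matrix genes. The 1 integrin-list gene called was the adaptor LIMS1 (−0.63 ± 0.14) and the 1 junction gene the desmosomal PKP2 (0.93 ± 0.18).

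A set of placode, eye and anterior neural genes fell. Of 26 tested (of 41 listed) 5 were called lower and none higher, 23 were below 0, and the median was −0.57. GBX2, a homeobox gene of the midbrain and hindbrain border and the otic placode, had 7214, 1686, 1892 and 575 with BMP4, against 14245, 9668, 5824 and 2391 untreated (log2 difference −1.77 ± 0.19, adjusted p = 0.000697), with a decline in both arms. SOX3, an early neural factor, had 424, 370.3, 391 and 134 with BMP4, against 703, 821, 723 and 739.6 untreated (log2 difference −1.22 ± 0.23, adjusted p = 0.0212), and the homeobox genes NKX6-1 (−1.35 ± 0.26) and ISL2 (−1.76 ± 0.35) were lower with EYA2. Of these, EYA2, SOX3, NKX6-1 and ISL2 had no overlap between the arms, and GBX2 was below its untreated partner at each time. Leaving out any 1 of the 12 h arrays gave 1 to 3 of the 5 calls. Summed neural markers were 470.1 to 1539 with BMP4 and 1438 to 2206 untreated, lower with BMP4 than the untreated partner at each time. Their part in these values was not tested. In the neuronal list C1QL3 was lower and NEFM (0.56 ± 0.10) and BRINP3 (2.49 ± 0.52) higher, of 34 tested. That is 5.88% of the neuronal list higher and 2.94% lower, against 1.14% and 0.708% of all genes tested. BRINP3 was dim at 3 h in both arms and lost its call in each of the 4 fits without a 12 h array. NEFM was called in 1 of these fits.

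Among other homeobox and SOX genes DLX5 and ISL1 rose and DLX1 and ISL2 fell of 16 DLX and LIM genes tested, and SOX9 and SOX14 rose and SOX3 fell of 14 SOX genes. Of 24 helix-loop-helix factors BHLHE22 and BHLHE41 (1.28 ± 0.17) were called higher and SCX lower. In the DLX and LIM, SOX and helix-loop-helix lists 12.5%, 14.3% and 8.33% were called higher and 12.5%, 7.14% and 4.17% lower. Over all genes tested it was 1.14% and 0.708%. None of 20 HOX, MEIS, PBX and IRX genes was called by limma, with 5 at an unadjusted p under 0.05. A count of 0 in that list cannot be set apart from the share over all genes. In the neural crest list the 2 called of 23 were DLX5 and PRRX1, and in the pharyngeal endoderm list, of 23, the homeobox gene HHEX was higher (1.09 ± 0.14, adjusted p = 0.00235) and the protease inhibitor SPINK5 lower.

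Cell cycle genes leaned lower. Of 43 genes of the cell cycle and DNA replication tested (of 53 listed) 3 were called lower and none higher. That is 6.98% lower, against 0.708% of all genes tested. In this list 40 genes were below 0 and the median was −0.38. The medians by time were −0.06 at 3 h, −0.42 at 12 h and −0.75 at 24 h. RRM2, a subunit of ribonucleotide reductase, had 6576, 7789.8, 6998 and 7186 with BMP4, against 8450.1, 12992, 11680.1 and 12128 untreated (log2 difference −0.65 ± 0.09, adjusted p = 0.0045). MCM2, of the replicative helicase, had 3838, 3336, 3548 and 2457 with BMP4, against 4999.8, 5396, 5426 and 5028 untreated (log2 difference −0.68 ± 0.11, adjusted p = 0.0101). GINS1, of the same helicase complex, had 794, 744, 871 and 560.1 with BMP4, against 1149, 1534, 1293 and 1372 untreated (log2 difference −0.84 ± 0.16, adjusted p = 0.0212). All 3 were lower on every BMP4 array than on any untreated array. Without the 3 h pair 15 genes of this list were called lower, and without the 24 h pair 1.

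CCND1, the cyclin D1 gene, came near the threshold, with 2064, 1144, 1542 and 739.9 with BMP4, against 2278, 2243, 2744 and 2476 untreated (log2 difference −0.91 ± 0.20, adjusted p = 0.0514). PCNA differed by −0.47 ± 0.11 (adjusted p = 0.0683) and MKI67 by −0.48 ± 0.18 (adjusted p = 0.348). Among 24 cell cycle inhibitors and apoptosis genes BTG2, an antiproliferative gene, was called higher, with 5156, 8437, 7877 and 11439 with BMP4, against 4688, 4089.8, 4507 and 4529 untreated (log2 difference 0.83 ± 0.15, adjusted p = 0.0151), and the pocket protein gene RBL1 lower (−0.81 ± 0.16). BTG2 was level at 3 h in both arms and then higher with BMP4.

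Hypoxia and catecholamine genes gave 3 calls of 21 tested, 2 higher (9.5%) and 1 lower (4.8%), against 1.14% and 0.708% of all genes tested. TH, tyrosine hydroxylase, had 7.79, 557, 596 and 593 with BMP4, against 11.8, 4.65, 8.71 and 136 untreated (log2 difference 2.51 ± 0.54, adjusted p = 0.0388). EPAS1, a hypoxia-inducible factor, had 228, 2256, 1381 and 6314 with BMP4, against 242, 233, 223 and 770.4 untreated (log2 difference 2.13 ± 0.39, adjusted p = 0.018), and the glucose transporter SLC2A1 was lower (−0.62 ± 0.13). TH and EPAS1 were no higher with BMP4 at 3 h, and both lost their call without any 1 of the 12 h arrays. In the inflammation list CD44, IL13RA2, a decoy receptor for interleukin 13, and LGALS3, a galectin (0.92 ± 0.11), were higher, and the chemokine CXCL14 lower (−1.14 ± 0.15), of 33 tested. These calls were 9.1% of the inflammation list higher and 3.03% lower. With the mean of the probe sets of a gene its 3 higher calls became 0.

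Lists of general cell functions and of other tissues gave 0 or 1 call each, where 1.85% of all genes tested were called. In lists of this size such counts cannot be set apart from that share. No ribosomal protein gene of 58 tested was called by limma, and none reached an unadjusted p of 0.05, as 1556 of the 11721 genes tested did. The mitochondrial respiratory chain gave 1 call of 45 (NDUFS1, 0.66 ± 0.13), glycolysis 1 of 18 (SLC2A1) and the stress list 1 of 20 (CHAC1, −1.03 ± 0.19). No call was made among 25 sterol and fatty acid genes (5 at an unadjusted p under 0.05), 25 endothelial genes (4), 19 blood genes (5), 16 smooth muscle genes (3) and 20 surface epithelial genes (7). In the skeletal muscle list the 1 call of 12 was ACTA1. GAPDH differed by −0.01 ± 0.06 and ACTB by 0.02 ± 0.06.

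**Figure D5:**
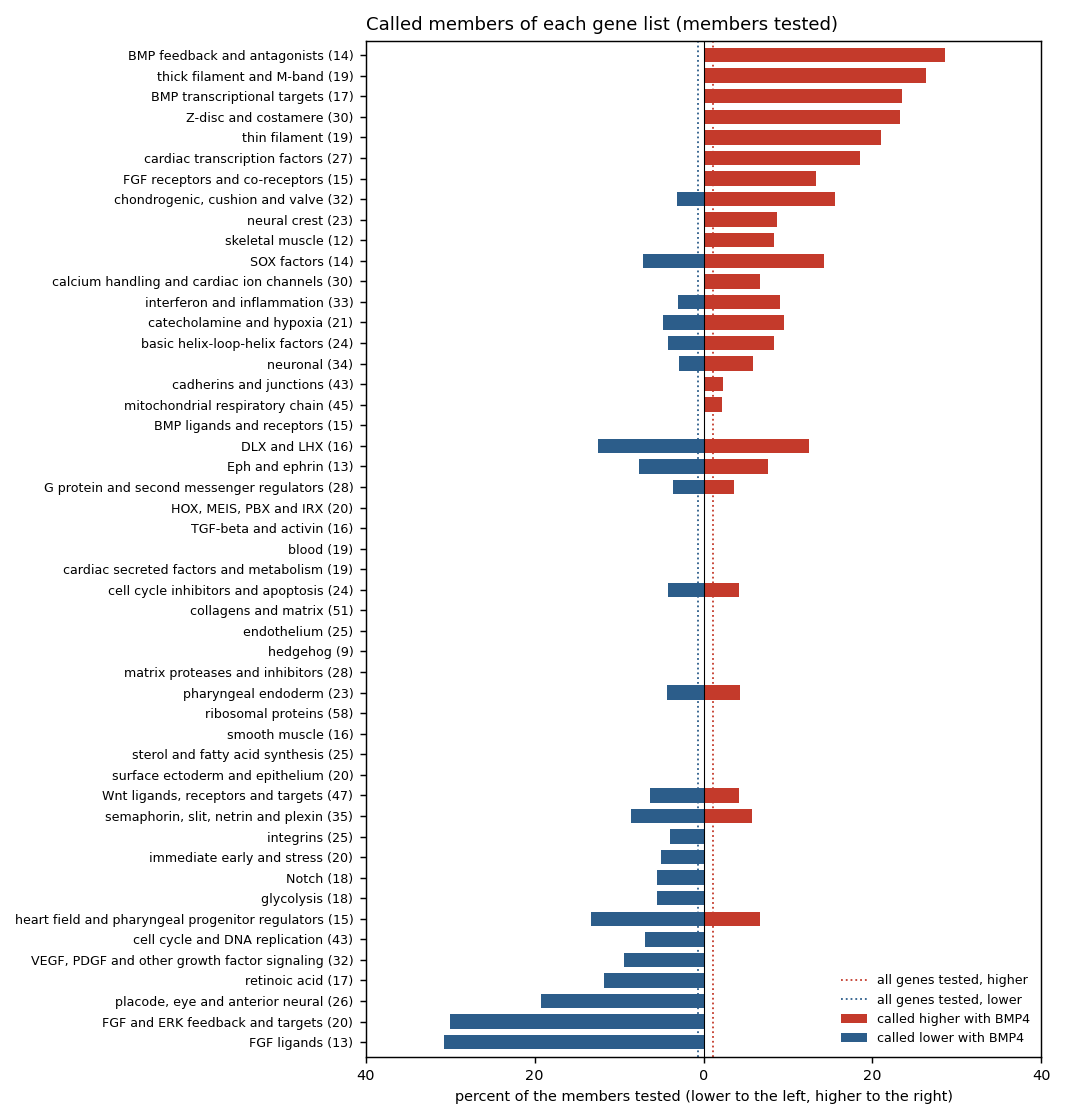
Percent of the tested members of each gene list that were called higher (bars to the right) or lower (bars to the left) with BMP4, with the number tested in brackets. Dotted lines are the shares over all 11721 genes tested, 1.14% higher and 0.708% lower. BMP feedback and target, sarcomere and cardiac transcription factor lists have 18.5% to 28.6% called higher. FGF ligands and FGF and ERK feedback genes have 30.8% and 30.0% called lower. The lists were chosen with earlier results of these data known, so their shares are not independent of the data.

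How far single genes depended on the duplicate arrays differed. Of the 217 called genes 78 were called in each of the 4 fits that left out 1 of the 12 h arrays, 52 higher and 26 lower, and 78 were called in none of them. Those called in each included BAMBI, SMAD6, MSX2, ID4, DLX5, PRRX1, GATA5, GPC3, LOC417741, BHLHE22, ABCC9, MYH7B, MYBPC3, MYL2 and TNNT2 among the higher and FGF3, FGF19, SPRY1, CYP26C1, NR2F2, PDGFA, RSPO3, GBX2, MCM2 and RRM2 among the lower. Those called in none included BRINP3, ACTN2, MYOCD and PROX1 among the higher. Among the lower they included SCX, LIMS1, RBL1, SLC2A1, IL17RD, DUSP4, DUSP6 and ETV4. A gene named without a remark on these fits is not thereby a stable call. Without the 3 h pair 202 of the 217 were called, and without the 24 h pair 91.

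The effect of BMP4 was itself tested for a change between 3 h and 24 h, from 6 group means with 2 residual degrees of freedom. With 1 array per arm at 3 h and at 24 h, the spread in this test comes from the 12 h duplicates alone, so it is not a test over replicates of those times. limma called 18 of 28329 probe sets (0.0635%), or 16 of 11721 genes (0.137%), and 2027 probe sets had an unadjusted p under 0.05. The count became 1 probe set with no filter on dim probe sets and 0 without the variance trend. In 13 of the genes the effect at 24 h was below that at 3 h, among them FGF8 (−4.08), FGF19 (−3.91), FGF18, EYA2 and VEGFD. In PRPS2, ALPPL and SNTB1 it was above. PAX6, an eye and forebrain homeobox gene, had 845, 112, 226 and 6.93 with BMP4, against 1033, 668, 866 and 1451 untreated, with a change of −5.13 ± 0.62 and an adjusted p = 0.0229. The neuropeptide gene NPY had 1473, 2443, 2282 and 469 with BMP4, against 1594, 4829.9, 5798 and 10287 untreated, with a change of −4.26. In both the untreated arrays were highest at 24 h and the BMP4 array was lowest there.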

How the data were processed

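Total RNA of each sample was read on 1 Affymetrix chicken array. The deposited table holds intensity on a linear scale for 38535 probe sets, made by the authors with MAS5 per the submitters' processing notes. Its version and scaling target are not given in the sources used here. Quantiles of the 9 arrays from 10% to 99% differ by a ratio of at most 1.0181, so the values had been put on 1 scale and were used as deposited.

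The log2 of the signal plus 27.79, the 25th percentile of the table, was analysed. Control probe sets (96) were not tested. Of the other 38439, 28329 were tested, being above the 40th array percentile in 2 or more of the 9 arrays, and 10110 were dropped. limma 3.58.1 in R 4.3.3 (lmFit and eBayes with a variance trend) fitted time and agent to the 8 cultured arrays, with 4 residual degrees of freedom. A second fit of 6 group means gave the differences at each time and the change between 3 h and 24 h. Tests were two-sided, with Benjamini-Hochberg adjustment over all probe sets tested. The script was tested on simulated data.

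Probe sets were named from the array's platform annotation matched to RefSeq genes (GRCg7b): 27168 carry 1 symbol, 177 several and 11094 none. NPPB was not analysed here. The genes named are the 25 highest and 25 lowest called genes with 1 symbol, the same sign at the 3 times and a mean signal of at least 100 in the higher arm. To these come every called member of the gene lists, a fixed panel, and the genes called for a change between times. The members and lists were chosen with earlier results of these data known. Lists are described by counts and medians, without a test. Alternatives changed the amount added, the filter, the normalization, the variance model, the block and the arrays used.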

Additional observations from a re-analysis of the deposited data

Results flagged for a closer look

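For 16 genes limma called a change of the BMP4 effect between 3 h and 24 h, with 2 residual degrees of freedom that both come from the 12 h duplicates. The effect was lower at 24 h in ZPLD1 (change −6.65), PAX6 (−5.13), NPY (−4.26), LOC419390 (−4.17), FGF8 (−4.08), FGF19 (−3.91), C2orf40 (−3.53), EYA2 (−3.29), CYTL1 (−3.25), FGF18 (−3.12), TFAP2B (−2.92), VEGFD (−2.89) and the carbonic anhydrase CA9 (−2.43). It was higher at 24 h in the dystrophin-associated SNTB1 (2.71), the alkaline phosphatase ALPPL (4.44) and the nucleotide synthesis gene PRPS2 (4.88). ZPLD1 had 108, 265, 141 and 39.4 with BMP4, against 25.1, 991, 691 and 2588 untreated, so the BMP4 array was the higher of the pair at 3 h and the lower at 24 h. PRPS2 had 61.1, 500.2, 586 and 4309 with BMP4, against 80.4, 90.4, 160.1 and 151 untreated, with the 24 h BMP4 array far above all the others. Only FGF8, FGF18, FGF19, EYA2 and VEGFD of the 16 were also called for the effect over the 3 times. Each change rests on 1 array per arm at either time, with no replicate of it. With no filter on dim probe sets 1 probe set was called, and without the variance trend none (2021 probe sets at an unadjusted p under 0.05).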

How the results depend on the processing

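The 340 probe sets called stayed within 1.5 times under 9 alternatives, between 292 with a stricter filter and 393 with the 3 times weighing equally. Quantile normalization, 1 of the 9, gave 342. It could move the count little, as the quantiles already differed by a ratio of at most 1.0181. With time and A/B as 4 pairs, a replicate block, the count was 295. The letters A and B need not mark a shared batch: the deviations of same-lettered 12 h arrays correlated at 0.126, from 1 pair. Without a variance trend 4 probe sets (3 genes) were called, with 2806 at an unadjusted p under 0.05. Without the 12 h pairs, which leaves 1 residual degree of freedom, 9 were called (6 genes), with 1583 at an unadjusted p under 0.05, and without any 1 of the 12 h arrays 147 to 218 (95 to 135 genes). Without the 24 h pair the count was 146 (95 genes) and without the 3 h pair 591 (384 genes). The mean of the probe sets of a gene gave 130 genes, against 217. For the change between times 18 probe sets became 1 with no filter on dim probe sets, 0 without a variance trend, 31 with robust variance moderation, 50 to 59 without any 1 of the 12 h arrays and 600 with A/B at 12 h as a replicate block, which leaves 1 residual degree of freedom. The cause of these moves was not tested.

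A turn of direction was looked for in 147 named genes, which leave out those chosen after their values were seen. No called gene among the 147 turned direction under any alternative. Some uncalled genes did. Without the 24 h pair these were GAPDH (0.01), GATA4 (0.17), MYH7 (−0.06), TBX20 (−0.11), TBX5 (−0.40) and TCF21 (−0.15). With the mean of the probe sets they were ACTB (−0.04), GAPDH (0.01), MEF2C (0.04) and RYR2 (0.20), and without the 12 h pairs ACTB (−0.04) and BMPR1A (−0.14). Without any 1 of the 12 h arrays ACTB ran from −0.02 to 0.05, BMPR1A from −0.05 to 0.15, GAPDH from −0.04 to 0.01, GATA4 from −0.15 to 0.01 and TBX20 from −0.06 to 0.33. Signal over background limits what can be said of genes that are dim on some or all arrays, such as TBX5, TBX20, FGF10 and HAND1.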

Other observations

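Of the 217 called genes 118 lie outside the gene lists, and those named in these paragraphs were chosen after their values were seen. The epithelial sodium channel subunit SCNN1A had 1414, 858, 1166 and 1324 with BMP4, against 792, 517, 602 and 563 untreated (log2 difference 0.91 ± 0.16, adjusted p = 0.013), the mineralocorticoid receptor NR3C2 differed by 0.89 ± 0.19 and the kinase SGK1, which that receptor induces in kidney, by 0.99 ± 0.19. SCNN1A did not overlap between the arms, but it was called in 2 of the 4 fits without a 12 h array, SGK1 in 1 and NR3C2 in 0. The keratin KRT13 differed by 1.13 ± 0.18, the uroplakin UPK1B by 1.08 ± 0.17, PERPB by 1.06 ± 0.17 and the calcium-binding S100A6 by 0.88 ± 0.13. In the list of surface ectoderm and epithelium none of 20 genes was called, with a median of 0.07 and 7 at an unadjusted p under 0.05 in limma. Summed surface ectoderm markers were 7878 to 15632 with BMP4 and 7041 to 11135 untreated, higher with BMP4 than the untreated partner at each time. Their part in these values was not tested. SLC1A3, a glutamate transporter, had 496, 1066, 931 and 1162 with BMP4, against 250.3, 417, 447 and 469.7 untreated (log2 difference 1.12 ± 0.16, adjusted p = 0.00328).

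Among the genes called lower MYCN, a transcription factor that drives growth, had 7905, 4438, 3624 and 2284 with BMP4, against 8674, 8891, 7049 and 9433 untreated (log2 difference −1.03 ± 0.21, adjusted p = 0.0338), nearly level at 3 h. MYCN was called in 0 of the 4 fits without a 12 h array. The origin recognition subunit ORC1 differed by −0.98 ± 0.17 (called in 1 of the 4 fits), the cytokinesis protein ANLN by −0.76 ± 0.15 (called in 2), the nucleolar NPM3 by −0.84 ± 0.14 (called in 3) and the proliferation-associated PA2G4 by −0.74 ± 0.11 (called in all 4). The peptide hormone gene APLN, which acts on heart and vessels, had 302, 331, 325 and 275 with BMP4, against 518, 681, 673 and 643 untreated (log2 difference −0.96 ± 0.16, adjusted p = 0.0112). ORC1, ANLN, PA2G4 and APLN were lower on all 4 BMP4 arrays than on any untreated array.

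Several called genes are neighbours. Of the 216 called genes placed in the RefSeq order of protein-coding genes (GRCg7b), 15 pairs had at most 2 genes between them and 10 of these none. In 12 of the 15 both genes went the same way. Besides ABCC9 with KCNJ8 these include RRM2 with HPCAL1, FGF3 with ANO1, NPM3 with FGF8, CYP26C1 with EXOC6, and TNNI1 with TNNT2, which have LAD1 between them. EXOC6 (−0.66 ± 0.14) and HHEX (1.09 ± 0.14), side by side, went opposite ways, as did RGS4 and RGS2. How often such pairs would be met among any 216 genes was not tested.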
